A study of Homo sapiens with 12 samples.

Results

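Genes that growth factor signalling switches on within minutes, together with the phosphatases and adaptors that switch the signal off again and the ligands and receptors that start it, were followed in RNA-seq libraries of 2 cancer cell lines. The 41 genes were taken by symbol, out of 60668 genes counted, and comprised 16 immediate early genes outside the AP-1 family, 9 dual-specificity phosphatases (DUSP), 5 Sprouty and Spred genes, 3 ETV transcription factors, 3 receptors of the EGFR family and 5 EGFR ligands. The rule used symbols and roles and no measured value, but the members were proposed with earlier results of these data known, so the shares set beside the background below describe the members and are no independent test. The 12 libraries formed 4 groups of 3: PANC-1 cells with an shRNA against FOSL1, PANC-1 cells with a scrambled shRNA, H1299 cells with an shRNA against HDAC2, and H1299 cells with a scrambled shRNA. PANC-1 is a pancreatic adenocarcinoma line and H1299 is labelled as lung adenocarcinoma. FOSL1 encodes FRA1, an AP-1 subunit of the FOS family that ERK signalling stabilises, and HDAC2 encodes a class I histone deacetylase. Both lines were kept in DMEM with serum. The methods describe lentiviral delivery and puromycin selection for the FOSL1 shRNA, and how the HDAC2 shRNA was delivered is not given in the sources used here. The sample descriptions give 1 shRNA number for each target, so effects of a target and of its shRNA cannot be told apart. No library holds either knockdown in the other line. The paper also knocked down FOSL1 in H1299, but that knockdown is not among these libraries. Whether the 3 replicates were transduced separately is not given in the sources used here, so the p values measure the spread between these cultures.

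EGFR ligands are made as membrane-bound precursors that are shed by metalloproteases and bind EGFR, which pairs with ERBB2 or ERBB3 and activates RAS, RAF, MEK and ERK. ERK then phosphorylates factors already present in the nucleus, such as the ternary complex factors that sit with SRF on CArG boxes, and CREB is phosphorylated by ERK-activated kinases, so that immediate early genes are transcribed without new protein synthesis. Part of the output is inhibitory: DUSPs remove phosphate from ERK, JNK or p38, Sprouty and Spred proteins block RAS and RAF activation, ZFP36 shortens the life of AU-rich mRNAs, and other outputs such as AREG, EREG, HBEGF and TGFA feed back on the receptor as autocrine ligands.

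Promoters of 4 members are shown. DUSP1 had the largest fall among the members after FOSL1 knockdown. AREG and EREG were the ligands expressed in PANC-1 but barely or not in H1299. EGR1, the classical immediate early gene, had a smaller fall (log2 fold change -0.39). RefSeq promoters of 300 bases, 250 before and 50 after the start, were at hand for 32 of the 41 members (GRCh38.p14). Capitals mark the cAMP response element (CRE, TGACGTCA) in DUSP1 and AREG, its core TGACG in EREG, and the CArG boxes in EGR1. The core also lay in EGR1 (bases -135 to -131 and -66 to -62 from the start). Further cores lay in DUSP1 outside the full element (-172 to -168 and -111 to -107). These are left in lower case, so the capitals do not compare the 4 promoters.
DUSP1 (chr5:172771146-172771445, minus strand): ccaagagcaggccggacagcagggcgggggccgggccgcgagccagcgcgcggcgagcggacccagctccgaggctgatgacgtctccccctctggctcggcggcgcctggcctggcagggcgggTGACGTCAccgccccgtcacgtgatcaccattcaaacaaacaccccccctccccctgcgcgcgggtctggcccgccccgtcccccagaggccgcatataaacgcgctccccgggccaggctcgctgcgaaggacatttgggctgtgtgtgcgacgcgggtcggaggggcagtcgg
AREG (chr4:74444886-74445185, plus strand): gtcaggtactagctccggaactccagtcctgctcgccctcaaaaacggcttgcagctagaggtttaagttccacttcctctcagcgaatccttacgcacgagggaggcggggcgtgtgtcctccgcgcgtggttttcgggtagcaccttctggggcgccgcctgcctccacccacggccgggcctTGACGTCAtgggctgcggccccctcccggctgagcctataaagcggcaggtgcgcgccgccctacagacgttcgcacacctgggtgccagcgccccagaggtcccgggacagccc
EREG (chr4:74364895-74365194, plus strand): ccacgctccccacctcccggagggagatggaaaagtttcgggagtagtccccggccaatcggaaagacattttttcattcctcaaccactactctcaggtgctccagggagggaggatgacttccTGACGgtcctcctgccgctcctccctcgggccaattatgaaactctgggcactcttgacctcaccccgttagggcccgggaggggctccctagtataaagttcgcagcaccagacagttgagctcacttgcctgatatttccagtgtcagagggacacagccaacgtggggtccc
EGR1 (chr5:138465229-138465528, plus strand): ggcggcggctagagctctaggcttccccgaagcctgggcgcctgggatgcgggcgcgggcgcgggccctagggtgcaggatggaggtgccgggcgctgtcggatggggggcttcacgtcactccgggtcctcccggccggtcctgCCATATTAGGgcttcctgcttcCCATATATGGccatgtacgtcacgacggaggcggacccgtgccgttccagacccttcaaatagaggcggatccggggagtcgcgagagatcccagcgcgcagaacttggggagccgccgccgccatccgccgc
A member was counted once if any of its promoters matched, and some members, such as ETV1, had more than 1. The background is a share of single promoters, so the member counts are favoured beside it. The full CRE, searched on both strands, lay in 3 of the 32 members (DUSP1, DUSP8 and AREG) and in 1.85% of all 35116 promoters of this length. Its core TGACG, which the full element contains, lay in 16 of the 32 members and in 24.6% of all promoters. The AP-1 element TGANTCA, the site that FRA1 binds with JUN partners, lay in 3 of the 32 members (SPRED2, EGFR and ERBB2) and in 7.71% of all promoters. CArG boxes lay in EGR1 and EGR2 and in 1.29% of all promoters. The EGR element GCGNGGGCG lay in 11 of the 32 members against 9.43% of all promoters, and the ETS element CCGGAA in 10 of the 32 against 17.2%. Promoters were at hand for 12 members that passed both thresholds downward after FOSL1 knockdown. Of these, 2 had the full CRE, 7 its core, 0 the AP-1 element, 0 a CArG box, 3 the EGR element and 4 the ETS element. The part of any of these elements in the falls was not tested. These matches describe letters in a short window and not binding.

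Total counts per library were 16065723 to 19173421. FOSL1 itself had 169, 159 and 158 CPM (counts scaled by TMM-normalised library totals) in FOSL1 knockdown cells, against 212, 210 and 234 CPM in PANC-1 scramble cells. The groups did not overlap, but the fall was modest (log2 fold change -0.43 ± 0.06 SE, adjusted p = 2.9e-06). HDAC2 had 80.9, 71.5 and 81.5 CPM in HDAC2 knockdown cells, against 177, 187 and 196 CPM in H1299 scramble cells, a clear fall (-1.26 ± 0.07, adjusted p = 5.4e-15). FOSL1 rose in H1299 after HDAC2 knockdown (0.40 ± 0.06, adjusted p = 4.4e-06), whereas the HDAC2 value in PANC-1 after FOSL1 knockdown was 0.05 ± 0.07 and did not pass. Scramble replicate 1 stood apart from its group in both lines, where its counts differed from the other replicates by 7.82 and 10.6 (PANC-1) and 6.79 and 7.62 (H1299) as chi-square over degrees of freedom, against 2.38 to 3.86 for all other pairs. Mitochondrially encoded genes took 12.6 to 13.3% of the counts in FOSL1 knockdown libraries and 6.99 to 7.29% in PANC-1 scramble libraries. With these genes and the 20 most abundant genes taken out of the fit, 21 members fell and 9 rose after FOSL1 knockdown, with 15 past both thresholds downward and 2 upward, against 22, 9, 17 and 2 with them in. The epithelial keratins KRT8 and KRT18 were expressed in both lines, while EPCAM, CDH1 and KRT19 were below 1 CPM in H1299. In PANC-1, 5 of 6 epithelial markers fell after FOSL1 knockdown, against 27.1% of all genes tested, and KRT19 rose. In H1299, the 3 epithelial markers with enough counts to test, KRT7, KRT8 and KRT18, fell past both thresholds after HDAC2 knockdown, against 5.61% of all genes tested. KRT8 had 175, 172 and 171 CPM in HDAC2 knockdown cells and 314, 285 and 280 CPM in scramble cells. The part of these marker changes in the ERBB2, ERBB3 and KLF4 falls seen under both knockdowns was not tested. Lineage markers were partly present: in PANC-1 SOX9 (229 to 243 CPM after FOSL1 knockdown, 231 to 254 CPM in scramble) and FOXA2 (71.8 to 78 and 59.2 to 67.6 CPM) were expressed, PDX1 was low (2.2 to 2.29 and 1.76 to 2.44 CPM) and PTF1A was at 0. In H1299 GATA6 was expressed (34.3 to 35.3 CPM after HDAC2 knockdown, 38.2 to 40.3 CPM in scramble), NKX2-1 was low (1.9 to 2.19 and 1.85 to 3.15 CPM), and SFTPB, SFTPC and SCGB1A1 were at or near 0. Of 7 genes marking blood, endothelial or stromal cells, COL1A1 alone was tested in PANC-1 (70 to 77 CPM after FOSL1 knockdown, 213 to 269 CPM in scramble), and the other 6 reached at most 0.412 CPM there.

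After FOSL1 knockdown in PANC-1, the members shifted downward. Of 37 members with enough counts to test, 22 fell and 9 rose at an adjusted p under 0.05, and 6 did not pass, while 27.1% of all 16345 genes tested fell and 23.8% rose. With the study's added threshold of an absolute log2 fold change over 0.5, 17 members (45.9%) passed downward, against a background of 15.8%, and 2 members (5.41%) passed upward, against a background of 10.6%. The median log2 fold change was -0.41 over the members tested and -0.02 over all genes tested. EGR3, NR4A3, DUSP4 and BTC had too few counts to test in PANC-1. All adjusted p values come from edgeR's quasi-likelihood test with Benjamini-Hochberg adjustment over all genes tested, and "rose" and "fell" are used for an adjusted p under 0.05. The fall was uneven across roles: all 4 ligands tested and all 3 ETV genes fell, immediate early genes and phosphatases divided, and 3 of 5 Sprouty and Spred genes rose.

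**Figure D1:**
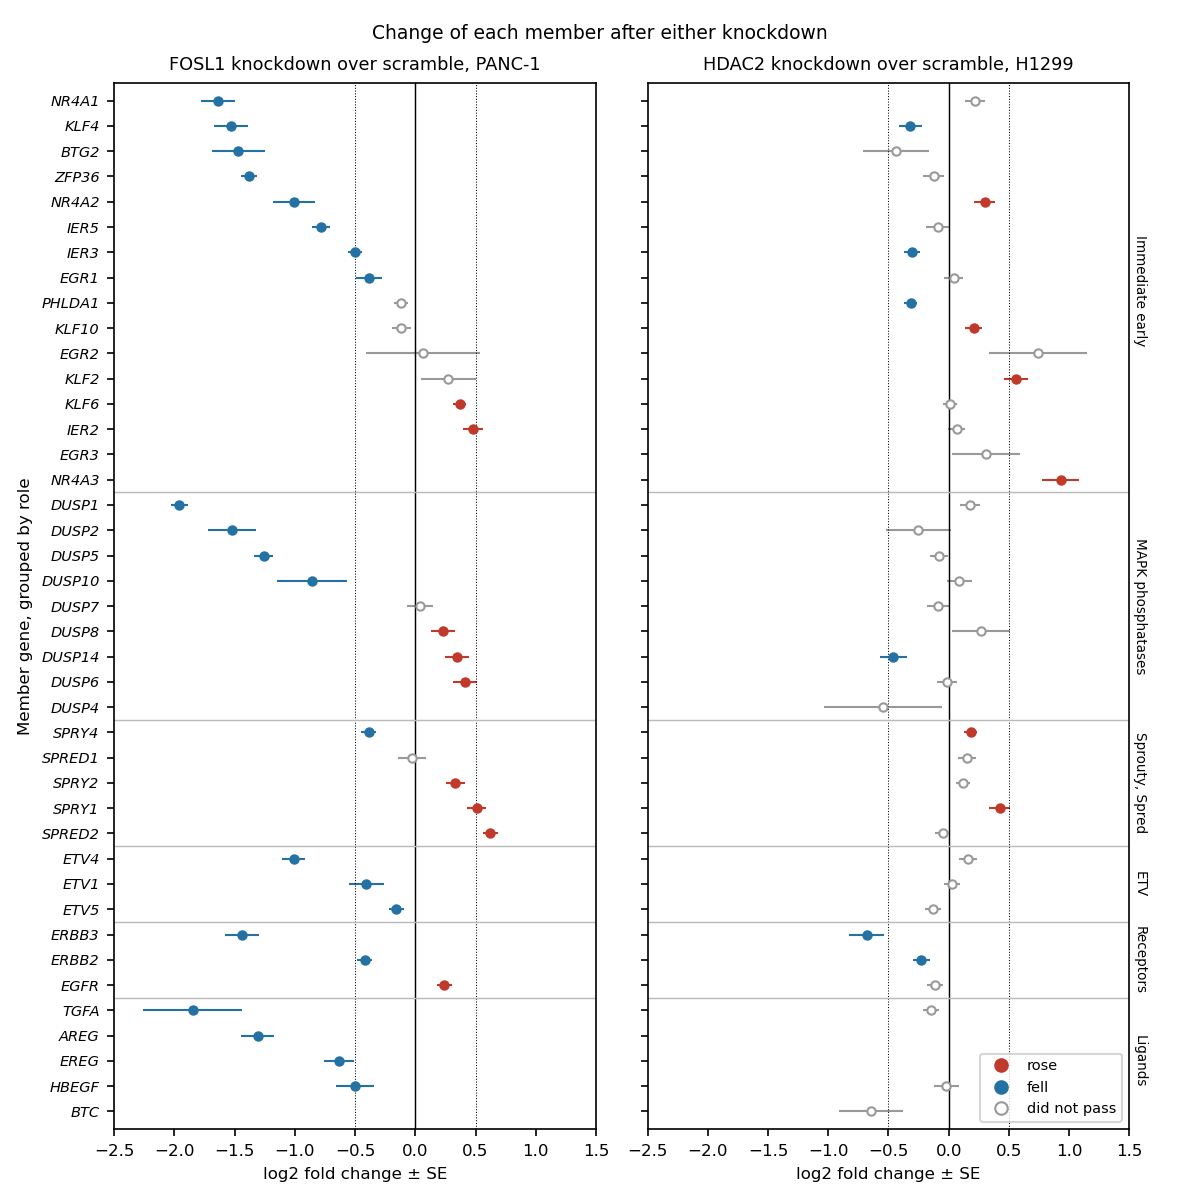
Log2 fold change with its standard error (horizontal axis) of each member (vertical axis, grouped by role and ordered by the PANC-1 value), for FOSL1 knockdown over scramble in PANC-1 (left) and HDAC2 knockdown over scramble in H1299 (right), with dotted lines at -0.5 and 0.5 and no point where a gene was not tested. In PANC-1, 22 members lie to the left as falls and 9 to the right as rises, whereas in H1299 6 fell, 6 rose and most points lie near 0.

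Among the immediate early genes, 8 of 14 tested fell and 2 rose in PANC-1. NR4A1 (NUR77), an orphan nuclear receptor induced by many growth signals, had 3.76, 3.74 and 4.19 CPM in FOSL1 knockdown cells, against 12.2, 12.2 and 12 CPM in scramble cells. Each group was tight and they were far apart, so that NR4A1 fell 3.11-fold (-1.64 ± 0.14, adjusted p = 7.0e-10). Its paralog NR4A2 had 2.74, 3.52 and 3.17 CPM in FOSL1 knockdown cells, against 5.71, 6.23 and 7.11 CPM in scramble cells, and fell 2.02-fold (-1.01 ± 0.17, adjusted p = 3.0e-05). The third paralog, NR4A3, had 2 to 10 counts in every PANC-1 library and was not tested. KLF4, a zinc finger factor of epithelial differentiation and one of the reprogramming factors, had 6.04, 5.92 and 4.40 CPM in FOSL1 knockdown cells, against 14.1, 16.4 and 16.6 CPM in scramble cells. It fell 2.88-fold (-1.53 ± 0.14, adjusted p = 2.1e-09), with a gap between the groups wider than either group's range.

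ZFP36 (tristetraprolin), which binds AU-rich elements in 3′ UTRs and recruits the deadenylation machinery, was by far the most abundant member in PANC-1. It had 993, 1010 and 986 CPM in FOSL1 knockdown cells, against 2690, 2870 and 2240 CPM in scramble cells, a 2.61-fold fall (-1.38 ± 0.07, adjusted p = 1.2e-14). The scramble libraries differed more among themselves than the knockdown libraries did, and no knockdown library came near them. All members together took 0.324 to 0.34% of the counts in FOSL1 knockdown libraries and 0.521 to 0.579% in scramble libraries. Without ZFP36 these shares were 0.228 to 0.242% and 0.271 to 0.288%. They are shares of total counts, which include the mitochondrially encoded genes (12.6 to 13.3% in FOSL1 knockdown, 6.99 to 7.29% in scramble libraries). The part of that difference in the lower member shares was not tested. BTG2, an antiproliferative protein that joins the same deadenylase complex, had 1.60, 2.01 and 1.99 CPM in FOSL1 knockdown cells, against 3.89, 5.36 and 6.30 CPM in scramble cells. BTG2 fell 2.77-fold (-1.47 ± 0.22, adjusted p = 4.7e-06) at a low level, where scramble replicate 1 was the lowest of its group.

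IER5, an early response regulator linked to heat shock factor activity, had 56.2, 60.4 and 55.4 CPM in FOSL1 knockdown cells, against 104, 100 and 91.7 CPM in scramble cells, and fell 1.72-fold (-0.78 ± 0.07, adjusted p = 2.2e-09). IER3, an early gene of stress and survival signalling, had 177, 164 and 172 CPM in FOSL1 knockdown cells, against 237, 248 and 242 CPM in scramble cells. Its fall was just over the fold threshold (-0.51 ± 0.06, adjusted p = 1.1e-07), and 38.9% of its exon bases overlap the antisense genes HCG20 and IER3-AS1. EGR1, the zinc finger factor that SRF drives, had 62.6, 69.2 and 42.5 CPM in FOSL1 knockdown cells, against 74.3, 79.0 and 74.2 CPM in scramble cells (-0.39 ± 0.11, adjusted p = 0.0043). The EGR1 fall leaned on 1 library: without FOSL1 knockdown replicate 3 it was -0.20 with an adjusted p of 0.07, and DESeq2 gave an adjusted p of 0.14. IER2 and KLF6 went the other way, with IER2 at 39.9 to 44.6 CPM against 28.9 to 32.9 CPM (0.48 ± 0.08, adjusted p = 4.6e-05) and KLF6 at 390 to 414 CPM against 298 to 320 CPM (0.37 ± 0.06, adjusted p = 6.2e-06) in FOSL1 knockdown and scramble cells. Of the IER2 exon bases, 52.2% overlap unnamed antisense genes, and counts on both strands cannot be told apart here because the strand setting of the counting is not given in the sources used here. PHLDA1 (-0.12 ± 0.05, adjusted p = 0.072), KLF10 (-0.12 ± 0.08), EGR2 (0.06 ± 0.48, at most 11 counts in a library) and KLF2 (0.27 ± 0.23) did not pass.

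**Figure D2:**
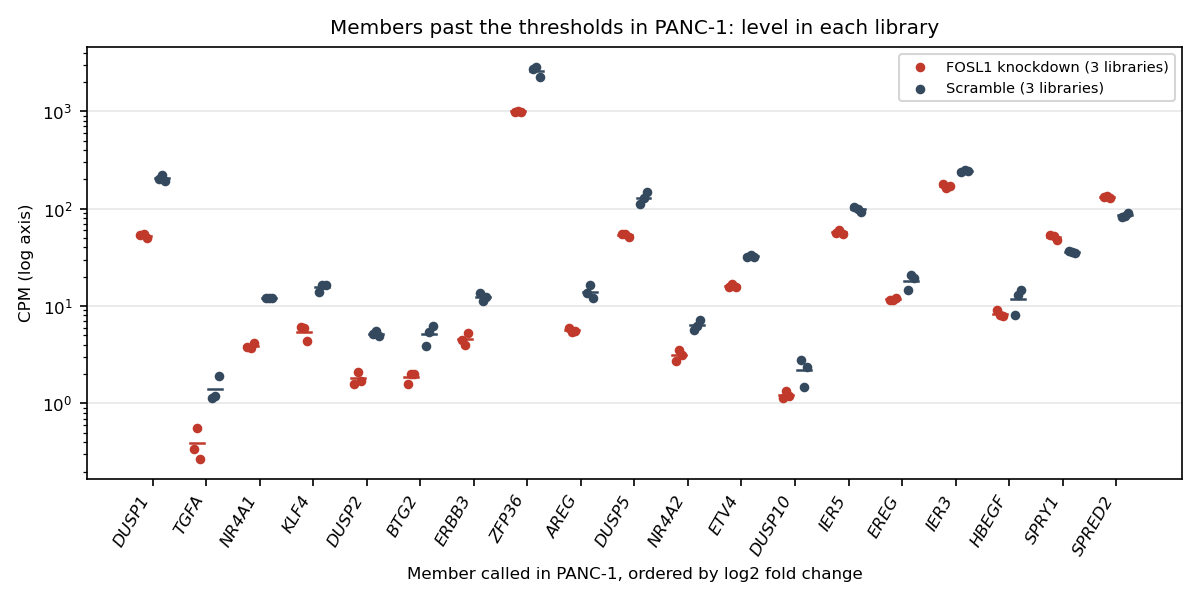
CPM on a log axis (vertical) in each library of FOSL1 knockdown PANC-1 cells (red, left of each pair) and scramble PANC-1 cells (dark, right) for the 19 members past both thresholds, with lines at the group means, ordered from the largest fall to the largest rise. The groups of DUSP1 (49.8 to 54.8 and 190 to 220 CPM) are wide apart, while those of HBEGF overlap.

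Of 8 phosphatases tested in PANC-1, 4 fell and 3 rose. DUSP1, a nuclear phosphatase of p38, JNK and ERK, had 53.0, 54.8 and 49.8 CPM in FOSL1 knockdown cells, against 202, 220 and 190 CPM in scramble cells. Its 3.88-fold fall (-1.96 ± 0.07, adjusted p = 5.2e-17) was the largest in size among the 37 members tested. DUSP5, a nuclear phosphatase specific for ERK, had 54.7, 55.2 and 51.2 CPM in FOSL1 knockdown cells, against 111, 128 and 147 CPM in scramble cells, and fell 2.40-fold (-1.26 ± 0.08, adjusted p = 5.8e-12). DUSP2, also nuclear and inducible, had 1.60, 2.12 and 1.72 CPM in FOSL1 knockdown cells, against 5.19, 5.56 and 4.89 CPM in scramble cells, and fell 2.87-fold (-1.52 ± 0.20, adjusted p = 9.0e-07). So each inducible nuclear phosphatase that could be tested fell, and DUSP4, the remaining one, had 1 to 9 counts in each PANC-1 library and was not tested. DUSP10, which acts on p38 and JNK, had 1.14, 1.34 and 1.18 CPM in FOSL1 knockdown cells, against 2.80, 1.49 and 2.37 CPM in scramble cells (-0.86 ± 0.29, adjusted p = 0.016). That fall did not pass without scramble replicate 1 (-0.63, adjusted p = 0.11).

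The cytoplasmic ERK phosphatase DUSP6, often used as a readout of ERK activity, rose instead, with 27.2 to 36.4 CPM in FOSL1 knockdown cells and 22.5 to 24.2 CPM in scramble cells (0.41 ± 0.10, adjusted p = 0.0015). Its cytoplasmic relative DUSP7 did not pass (0.04 ± 0.11). DUSP14 rose slightly, with 22.6 to 26.3 CPM against 17.8 to 20 CPM (0.35 ± 0.10, adjusted p = 0.0054), and DUSP8, a JNK and p38 phosphatase, rose only at the threshold (0.23 ± 0.10, adjusted p = 0.05 after rounding) and did not pass under several alternatives. An antisense gene covers 28.6% of the DUSP6 exon bases.

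Sprouty and Spred proteins, which restrain RAS and RAF, were the role with more rises than falls. SPRED2 had 132, 135 and 129 CPM in FOSL1 knockdown cells, against 82.6, 84.1 and 90.3 CPM in scramble cells, and rose 1.54-fold (0.62 ± 0.06, adjusted p = 1.9e-08). SPRY1 had 53.1, 51.9 and 47.7 CPM in FOSL1 knockdown cells, against 36.6, 35.7 and 35.0 CPM in scramble cells, and rose 1.42-fold (0.51 ± 0.08, adjusted p = 7.6e-06). In both genes all knockdown libraries were above all scramble libraries, as they were for 27.3% of all genes tested in PANC-1. SPRY2 rose less, at 46.2 to 53.0 CPM against 38.1 to 39.2 CPM (0.33 ± 0.08, adjusted p = 0.0012). SPRY4 fell, at 114 to 121 CPM against 153 CPM in each scramble library (-0.39 ± 0.06, adjusted p = 9.4e-06), and SPRED1 did not pass (-0.03 ± 0.11).

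The ETV factors (ETV1, ETV4 and ETV5), ETS proteins induced by receptor tyrosine kinase signalling, all fell but to different degrees. ETV4 had 15.6, 17.0 and 15.5 CPM in FOSL1 knockdown cells, against 32.0, 33.5 and 31.7 CPM in scramble cells, a 2.02-fold fall (-1.01 ± 0.09, adjusted p = 3.4e-09). ETV1 (-0.41 ± 0.14, adjusted p = 0.021) had overlapping groups and did not pass without FOSL1 knockdown replicate 1, FOSL1 knockdown replicate 3 or scramble replicate 3 (-0.26, -0.36 and -0.27), and ETV5 (-0.16 ± 0.07, adjusted p = 0.047) passed narrowly and not under several alternatives.

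Among the receptors, the 3 genes separated. EGFR rose slightly, with 317, 332 and 333 CPM in FOSL1 knockdown cells, against 265, 267 and 298 CPM in scramble cells (0.24 ± 0.06, adjusted p = 0.0014). ERBB2, the receptor that binds no known ligand and serves as partner, had 92.9, 96.4 and 93.8 CPM in FOSL1 knockdown cells, against 134, 124 and 121 CPM in scramble cells, and fell (-0.42 ± 0.06, adjusted p = 7.1e-06). ERBB3, the neuregulin receptor with a nearly inactive kinase, had 4.50, 3.97 and 5.26 CPM in FOSL1 knockdown cells, against 13.5, 11.3 and 12.5 CPM in scramble cells. ERBB3 fell 2.71-fold (-1.44 ± 0.14, adjusted p = 1.0e-08), the largest fall of the receptors.

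All 4 EGFR ligands that could be tested in PANC-1 fell. AREG (amphiregulin) had 5.93, 5.36 and 5.59 CPM in FOSL1 knockdown cells, against 13.5, 16.3 and 12 CPM in scramble cells, and fell 2.47-fold (-1.31 ± 0.14, adjusted p = 3.2e-08). EREG (epiregulin), its neighbour on chromosome 4, had 11.6, 11.5 and 12.2 CPM in FOSL1 knockdown cells, against 14.5, 20.9 and 19.4 CPM in scramble cells, and fell 1.55-fold (-0.64 ± 0.13, adjusted p = 0.00016). For both genes every knockdown library was below every scramble library, as was so for 29.9% of all genes tested in PANC-1. HBEGF had 9.07, 8.16 and 7.90 CPM in FOSL1 knockdown cells, against 8.04, 12.9 and 14.5 CPM in scramble cells, so that scramble replicate 1 lay within the knockdown range. The HBEGF fall was at the fold threshold (-0.50 ± 0.16, adjusted p = 0.012), and it did not pass without scramble replicate 3 (-0.31, adjusted p = 0.092) or without FOSL1 knockdown replicate 3 (-0.45, adjusted p = 0.051). TGFA was low in PANC-1, with 0.342, 0.559 and 0.269 CPM in FOSL1 knockdown cells, against 1.14, 1.18 and 1.92 CPM in scramble cells (-1.85 ± 0.41, adjusted p = 0.00054). Those values rest on 5 to 10 counts in knockdown and 22 to 38 counts in scramble libraries. BTC (betacellulin) had at most 4 counts in any PANC-1 library and was not tested.

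Other genes of the pathway, from lists beside the members, divided in the same comparison, in which 27.1% of all genes tested fell, 23.8% rose and 50.9% passed in either direction. Of 23 other immediate early and ERK output genes tested, 11 fell and 6 rose. CCN2 (346, 372 and 324 CPM in FOSL1 knockdown cells, 103, 103 and 113 CPM in scramble cells) and CCN1 (451, 469 and 452 CPM, against 226, 210 and 235 CPM), matricellular genes of the SRF and YAP programmes, rose by 1.71 ± 0.07 and 1.03 ± 0.06 on the log2 scale. SGK1 fell by 1.31 and GADD45B by 1.08 on that scale. Of 22 genes of the RAS to ERK core, 8 fell and 2 rose, with 4 past both thresholds downward (background 15.8%), led by RPS6KA2 (-0.99 ± 0.13) and KSR1 (-0.59 ± 0.09). Both rises, SHC1 and ARAF, named after their values were seen, were 0.24 on the log2 scale. Of 13 SRF, ternary complex, CREB and related regulators, 6 rose and 3 fell, with ETS1 up by 0.54 and ETS2 down (-0.69 ± 0.06). Of 12 genes for EGFR traffic and ligand shedding, 6 fell and 3 rose, and LRIG1 (-0.65 ± 0.16) and RHBDF1 (-0.51 ± 0.07) passed both thresholds. Of 17 other members of the same families, 8 fell and 3 rose, led by DUSP9 (-1.23 ± 0.12) and KLF5 (-0.94 ± 0.17) downward and NRG2 (0.53 ± 0.10) upward. Of 12 stress kinases of the JNK and p38 arms, 4 fell and 3 rose, near the shares of all genes, and MAP3K5 (-0.74 ± 0.14) alone passed both thresholds.

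HDAC2 knockdown in H1299 moved fewer members. Of 39 tested, 6 rose and 6 fell and 27 did not pass, while 10.3% of all 16465 genes tested rose and 12.1% fell. With the fold threshold, 2 members passed upward, against a background of 1.45%, and 1 passed downward, against a background of 5.61%. The medians were -0.014 over the members and -0.0049 over all genes tested. NR4A3, the orphan receptor that was near 0 in PANC-1, had 8.63, 7.89 and 7.81 CPM in HDAC2 knockdown cells, against 3.57, 4.34 and 4.82 CPM in scramble cells, and rose (0.93 ± 0.16, adjusted p = 4.2e-05). KLF2, a Krüppel-like factor known from endothelium and resting T cells, had 24.7, 29.0 and 29.4 CPM in HDAC2 knockdown cells, against 20, 16.3 and 20 CPM in scramble cells (0.56 ± 0.10, adjusted p = 7.0e-05). ERBB3 had 7.82, 5.38 and 7.16 CPM in HDAC2 knockdown cells, against 9.29, 12.3 and 11.1 CPM in scramble cells, and fell (-0.68 ± 0.14, adjusted p = 0.00075). In all 3 genes the groups did not overlap. Of all genes tested in H1299, 18.1% were higher and 19.1% lower after knockdown without overlap.

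**Figure D3:**
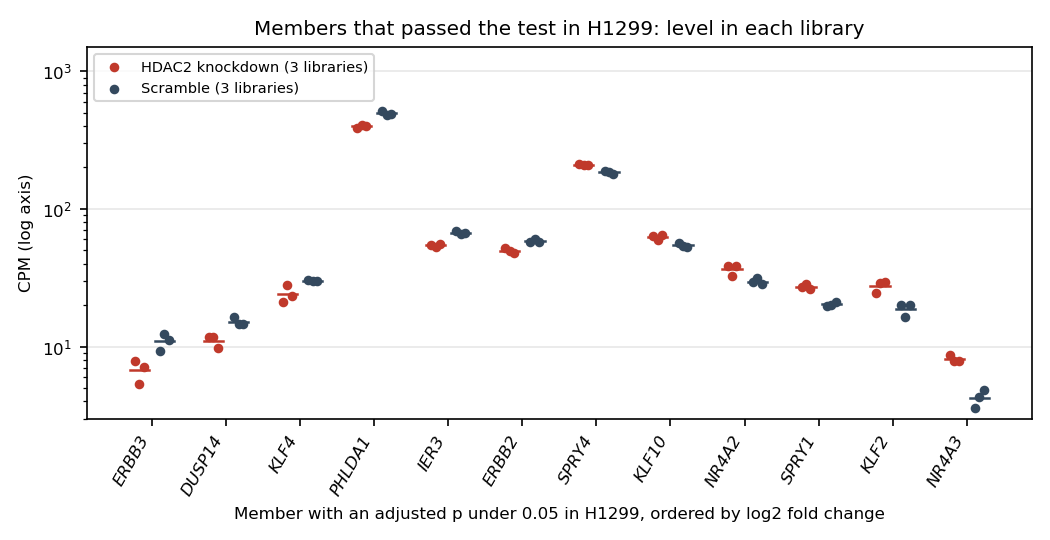
CPM on a log axis (vertical) in each library of HDAC2 knockdown H1299 cells (red, left of each pair) and scramble H1299 cells (dark, right) for the 12 members with an adjusted p under 0.05, with lines at the group means, ordered by log2 fold change. ERBB3 is at the low end of fold changes (5.38 to 7.82 CPM after knockdown, 9.29 to 12.3 CPM in scramble) and NR4A3 at the high end (7.81 to 8.63 and 3.57 to 4.82 CPM).

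The other passing members in H1299 changed by less than 0.5 on the log2 scale. SPRY1 rose (26.3 to 28.4 CPM in HDAC2 knockdown cells, 19.7 to 21.1 CPM in scramble cells, 0.42 ± 0.09, adjusted p = 0.00057), as did NR4A2 (0.30 ± 0.08, adjusted p = 0.0098), KLF10 (0.21 ± 0.07, adjusted p = 0.029) and SPRY4 (0.18 ± 0.06, adjusted p = 0.02). DUSP14 (-0.46 ± 0.11, adjusted p = 0.0034), KLF4 (-0.32 ± 0.09, adjusted p = 0.012), PHLDA1 (-0.32 ± 0.05, adjusted p = 7.2e-05), IER3 (-0.30 ± 0.07, adjusted p = 0.0014) and ERBB2 (-0.23 ± 0.07, adjusted p = 0.019) fell. ERBB2 had 52.1, 49.9 and 47.6 CPM in HDAC2 knockdown cells, against 57.6, 60.1 and 57.3 CPM in scramble cells, with no overlap. Of these, NR4A2, KLF4, KLF10, SPRY4 and ERBB2 no longer passed the adjusted p of 0.05 when some single libraries were left out. The number of members that rose was 10 without scramble replicate 1, the library that stood apart, and 3 without HDAC2 knockdown replicate 1, without HDAC2 knockdown replicate 3 or without scramble replicate 3.

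The phosphatases DUSP1 (0.18 ± 0.09, adjusted p = 0.14), DUSP5 (-0.08 ± 0.08), DUSP6 (-0.01 ± 0.08), DUSP7 (-0.09 ± 0.09), DUSP10 (0.09 ± 0.10), DUSP2 (-0.25 ± 0.27), DUSP4 (-0.54 ± 0.49) and DUSP8 (0.27 ± 0.24) did not pass in H1299. EGFR had 70.6, 71.4 and 70.4 CPM in HDAC2 knockdown cells, against 74.0, 81.2 and 75.4 CPM in scramble cells, and did not pass (-0.12 ± 0.07, adjusted p = 0.21). TGFA, the leading ligand of H1299, had 64.9, 64.5 and 66.2 CPM in HDAC2 knockdown cells, against 69.1, 69.9 and 77.8 CPM in scramble cells (-0.15 ± 0.07, adjusted p = 0.12). HBEGF (14.8, 14.9 and 15.5 CPM, against 16.8, 13.9 and 15.1 CPM) was at -0.02 ± 0.11, and BTC (1.63, 1.16 and 2.29 CPM, against 3, 2.32 and 2.7 CPM) at -0.65 ± 0.27 with an adjusted p of 0.077. These did not pass at this depth, and BTC passed without HDAC2 knockdown replicate 3 (-0.94, adjusted p = 0.035). AREG had 5 to 11 counts in each H1299 library and EREG 1 count in all, and neither was tested. The remaining immediate early members (EGR1, EGR2, EGR3, IER2, IER5, NR4A1, KLF6, ZFP36 and BTG2) lay between -0.44 and 0.75, the ETV genes between -0.13 and 0.16, and SPRY2, SPRED1 and SPRED2 between -0.05 and 0.15, all without passing.

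The surrounding lists are small and stand beside the shares of all genes tested in H1299. Of those, 10.3% rose and 12.1% fell, and 1.45% and 5.61% passed both thresholds upward and downward. Among the other immediate early genes, 3 of 24 rose in H1299 and 1 fell, BHLHE40 (17.0 to 18.9 CPM in HDAC2 knockdown cells, 27.6 to 30.9 CPM in scramble cells, -0.68 ± 0.09, adjusted p = 1.2e-06). Of 22 RAS to ERK core genes, 4 fell and 3 rose, and RPS6KA2 (-1.42 ± 0.34, adjusted p = 0.0026) was the one past the fold threshold, at 9 to 38 counts a library. RPS6KA2, which encodes the kinase RSK3, and the upward ARC (1.38 ± 0.38) are below 5 CPM in H1299 and are named after their values were seen. In the other lists, 1 regulator of 13 rose and 1 fell, 1 EGFR traffic gene of 12 rose and 2 fell, 4 other family members of 17 fell and none rose, and 1 stress kinase of 12 rose and 1 fell. SPRED3, a Spred relative (30.0 to 33.3 CPM in HDAC2 knockdown cells, 42.7 to 48.8 CPM in scramble cells, -0.53 ± 0.08, adjusted p = 8.7e-06), and MAPK11, the p38 beta kinase (20.9 to 22.4 CPM against 32.8 to 37.5 CPM, -0.68 ± 0.09, adjusted p = 5.0e-07), were past both thresholds.

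The difference between the FOSL1 effect in PANC-1 and the HDAC2 effect in H1299 was tested as an interaction over all 12 libraries. Line and target differ together in this design and cannot be told apart. Of the 41 members, 15 had a lower effect in PANC-1 past both thresholds, against a background of 10.3%, and 2 a higher one, against a background of 11.9%. The 15 were IER5, NR4A1, NR4A2, KLF4, ZFP36, BTG2, DUSP1, DUSP2, DUSP5, DUSP10, SPRY4, ETV4, ERBB3, AREG and TGFA, and the 2 were SPRED2 and DUSP14. DUSP1 differed most among these (-2.11 ± 0.11, adjusted p = 1.2e-15), followed by NR4A1 (-1.83 ± 0.15, adjusted p = 5.2e-11). AREG (-1.48 ± 0.46, adjusted p = 0.011) is compared here with an H1299 level of 5 to 11 counts. IER3, KLF4, ERBB2 and ERBB3 fell under both knockdowns and SPRY1 rose under both. For IER3 and ERBB2 the difference between the effects did not pass (adjusted p = 0.10 and 0.14), whereas ERBB3 (-0.74 ± 0.21, adjusted p = 0.0064) and KLF4 (-1.19 ± 0.17, adjusted p = 1.5e-06) fell further in PANC-1.

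Without either knockdown, the lines expressed different sets of these genes. In PANC-1 scramble over H1299 scramble, 14 of 41 members (34.1%) were higher past both thresholds, against a background of 30.2% of 18505 genes tested, and 18 (43.9%) were lower, against a background of 31.3%. Levels per kb were CPM divided by the union of annotated exons, so ranks between genes depend on that annotation. In CPM without this division, EREG lay above AREG in PANC-1 (means 11.8 and 5.63 in FOSL1 knockdown cells, 18.3 and 13.9 in scramble cells). Per kb of exon, AREG came first among the ligands in PANC-1: 3.6 ± 0.18 CPM per kb in FOSL1 knockdown cells and 8.77 ± 1.36 in scramble cells (SD, n = 3). HBEGF followed with 2.95 ± 0.22 in FOSL1 knockdown cells and 4.09 ± 1.16 in scramble cells, and EREG with 2.16 ± 0.08 and 3.30 ± 0.60, and in scramble cells the ranges of HBEGF and EREG are not separated beyond their SDs. In H1299, TGFA led with 12.7 ± 0.21 CPM per kb in HDAC2 knockdown cells and 14.1 ± 0.92 in scramble cells, HBEGF was next with 4.83 ± 0.14 and 4.88 ± 0.51, and BTC had 0.612 ± 0.21 and 0.965 ± 0.13. As a share of the summed ligand level per kb, AREG held 39.9 to 41.1% in FOSL1 knockdown libraries and 45.8 to 60.1% in PANC-1 scramble libraries, while TGFA held 67.7 to 69.7% in HDAC2 knockdown and 66.9 to 71.3% in H1299 scramble libraries. The summed level was 8.61 to 9.24 CPM per kb in FOSL1 knockdown libraries, against 14.2 to 18.8 in PANC-1 scramble libraries, and 18.1 to 19.1 in HDAC2 knockdown libraries, against 19 to 21.2 in H1299 scramble libraries. The ligand sum thus lay lower in every FOSL1 knockdown library than in any PANC-1 scramble library, and the H1299 ranges overlapped.

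**Figure D4:**
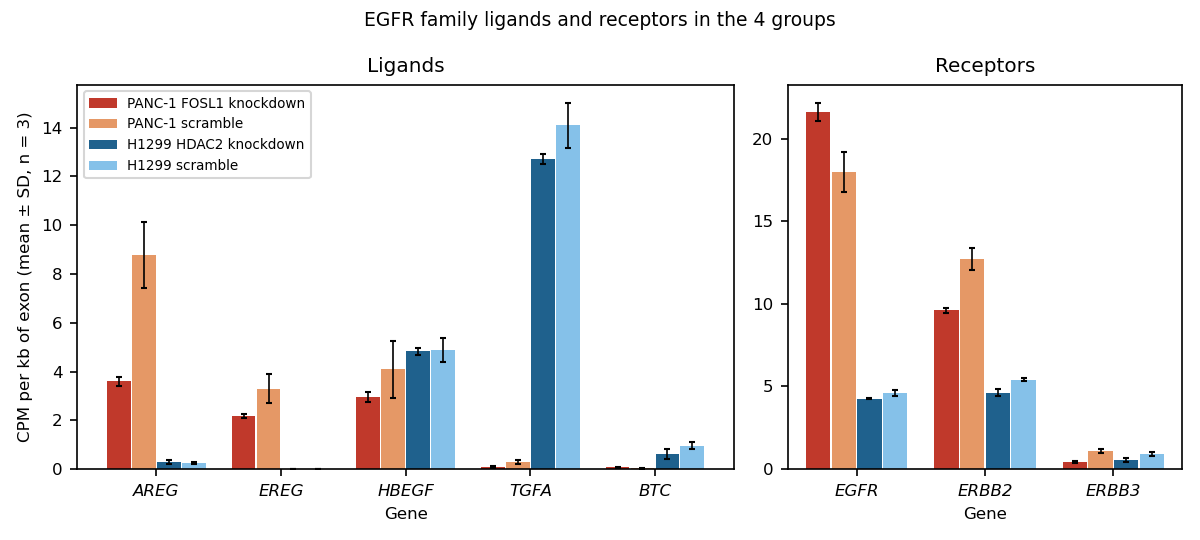
CPM per kb of exon (vertical, bars are means of 3 libraries from 0, error bars are SD) of the 5 EGFR ligands and 3 receptors in FOSL1 knockdown and scramble PANC-1 cells and HDAC2 knockdown and scramble H1299 cells. AREG (8.77 in PANC-1 scramble) and TGFA (14.1 in H1299 scramble) lead in different lines, and EGFR is the highest receptor in PANC-1 (21.6 in FOSL1 knockdown and 18 in scramble).

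The ligand genes of chromosome 4 did not go together between the lines. EREG (chr4:74365145-74388749) starts 80 kb before AREG (chr4:74445136-74455005), and BTC starts 349 kb after AREG. EREG had 280, 406 and 384 counts in the PANC-1 scramble libraries and 0 in each H1299 scramble library, at least 352-fold higher in PANC-1 at a floor of 3 counts over the group. AREG was higher in PANC-1 by 5.10 ± 0.23 on the log2 scale (adjusted p = 2.2e-19), whereas BTC was lower (-5.05 ± 0.49, adjusted p = 8.2e-11), as was TGFA on chromosome 2 (-5.55 ± 0.13, adjusted p = 6.9e-27). HBEGF did not pass (-0.25 ± 0.14, adjusted p = 0.097). EGFR (1.96 ± 0.06, adjusted p = 2.0e-23) and ERBB2 (1.23 ± 0.06, adjusted p = 1.6e-17) were higher in PANC-1 past both thresholds, and ERBB3 was slightly higher (0.31 ± 0.13, adjusted p = 0.036). In CPM per kb, EGFR exceeded ERBB2 and ERBB2 exceeded ERBB3 in PANC-1. Per kb in H1299, ERBB2 (4.63 ± 0.19 in HDAC2 knockdown, 5.41 ± 0.11 in scramble) lay a little above EGFR (4.26 ± 0.03 and 4.61 ± 0.19). ERBB3 was lowest there (0.555 ± 0.10 and 0.89 ± 0.12). Without division by exon length, EGFR lay above ERBB2 in H1299 (mean CPM 70.8 and 49.9 in HDAC2 knockdown, 76.9 and 58.3 in scramble).

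The phosphatases and nuclear receptors also differed by line. DUSP8 (3.29 ± 0.15), DUSP1 (2.95 ± 0.08), DUSP5 (1.51 ± 0.08) and DUSP2 (1.46 ± 0.20) were higher in PANC-1 scramble than in H1299 scramble, and DUSP10 (-2.69 ± 0.16), DUSP4 (-1.33 ± 0.59), DUSP6 (-0.69 ± 0.10) and DUSP7 (-0.54 ± 0.10) were lower. DUSP1, DUSP2 and DUSP5, which fell after FOSL1 knockdown, thus started from a higher level than in H1299. Other members that fell, such as DUSP10, NR4A1, NR4A2, KLF4 and ETV4, started from a lower level than in H1299. After FOSL1 knockdown DUSP1 was still at 27.5 ± 1.3 CPM per kb, against 105 ± 7.8 in PANC-1 scramble cells, while it had 15.4 ± 1.1 in HDAC2 knockdown and 13.6 ± 1.0 in H1299 scramble cells. NR4A1 (-1.17 ± 0.10), NR4A2 (-2.11 ± 0.11), NR4A3 (-3.81 ± 0.33), KLF2 (-2.89 ± 0.15), KLF4 (-0.83 ± 0.11), IER2 (-0.81 ± 0.08) and EGR1 (-0.56 ± 0.11) were lower in PANC-1, as was EGR3, with 1 count over the 3 PANC-1 scramble libraries and 99 over the 3 H1299 scramble libraries. ZFP36, IER5 (2.11 ± 0.08), IER3 (1.96 ± 0.06), BTG2 (1.18 ± 0.23) and KLF6 (1.00 ± 0.06) were higher. SPRY1 (0.93 ± 0.08) was higher, and SPRY2 (-1.57 ± 0.07), SPRED1 (-1.15 ± 0.10), ETV1 (-1.62 ± 0.11) and ETV4 (-0.82 ± 0.08) were lower. DUSP14, ETV5, KLF10 and SPRY4 passed the test with a difference under 0.5, and PHLDA1, EGR2 and SPRED2 did not pass.

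ZFP36 stood out from the other members by its level in PANC-1, 6.43 ± 0.09 on the log2 scale above H1299 (adjusted p = 1.0e-32), where it had 27.6 to 31.4 CPM in HDAC2 knockdown and 30.8 to 36.0 CPM in scramble cells. It lies on chromosome 19 (chr19:39406847-39409412, plus strand, 2 exons). Of the 61 other genes tested that start within 1000 kb of it, 53 (86.9%) were higher in PANC-1 past both thresholds, against the background of 30.2%, and 3 were lower, with a median log2 difference of 2.67. The immediate neighbours PAF1 (3.12), MED29 (2.83), PLEKHG2 (3.25) and RPS16 (3.58) were all higher in PANC-1. DNA copy number was not measured in these samples, and its part in the levels was not tested. After FOSL1 knockdown the calls in the same neighbourhood were near the shares of all genes. Of 60 genes, 8 (13.3%) passed upward, against a background of 10.6%, and 9 downward, against a background of 15.8%, with a median of -0.12. ZFP36 fell by 1.38, while PAF1 and MED29 rose by 0.32 and 0.31 and PLEKHG2 rose by 1.15.

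**Figure D5:**
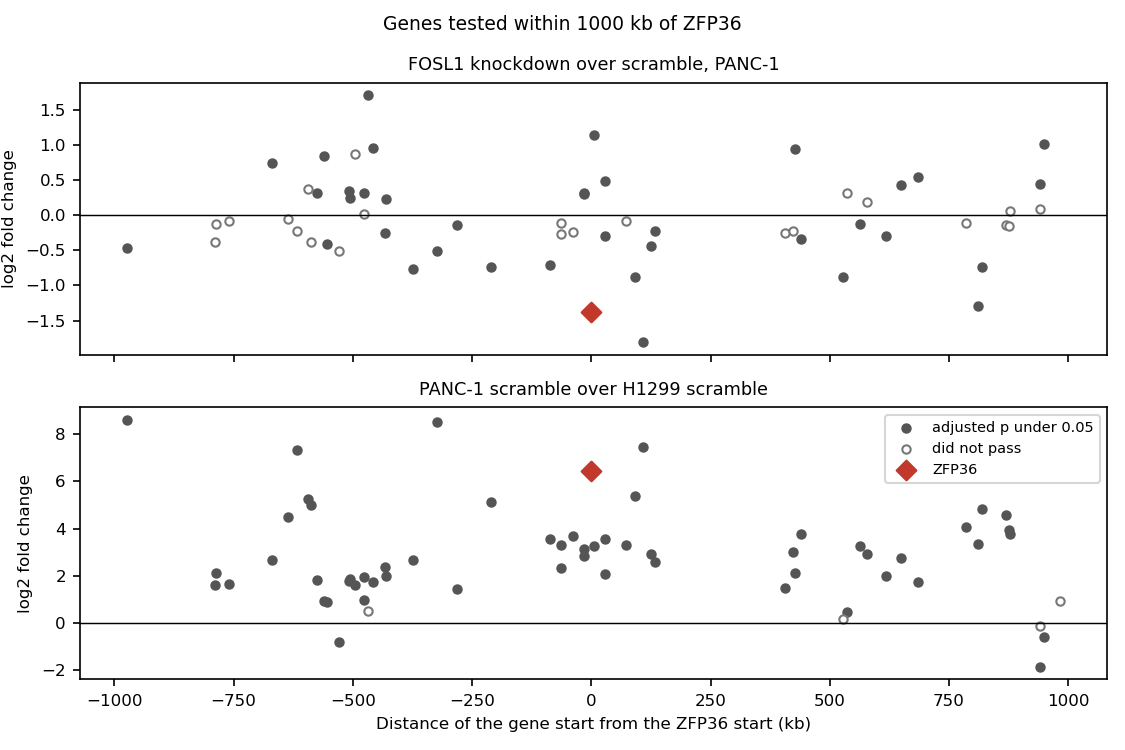
Log2 fold change (vertical) of each gene tested within 1000 kb of ZFP36 against the distance of its start from the ZFP36 start in kb (horizontal), for FOSL1 knockdown over scramble in PANC-1 (top) and PANC-1 scramble over H1299 scramble (bottom), with filled points at an adjusted p under 0.05 and ZFP36 as a red diamond. Across this stretch 53 of 61 other genes are higher in PANC-1, while the FOSL1 knockdown values scatter around a median of -0.12.

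Gene structure was shared by many members and was no part of the choice. The 41 members spanned a median of 13.6 kb with 4 exons in the Ensembl canonical transcript, against 33.2 kb and 9 exons over 13170 protein-coding genes tested in PANC-1 (GENCODE release 44). The members that passed both thresholds downward after FOSL1 knockdown had a median of 5 exons and 13.6 kb, and the other members tested had 3 exons and 8.47 kb. The heptamer TATTTAT, the DNA form of the AU-rich site that ZFP36 binds, lay in the canonical 3′ UTR of 24 of 41 members (58.5%) and of 35.3% of the protein-coding genes tested, at 0.657 and 0.326 matches per kb of 3′ UTR. IER5, IER3, DUSP4, SPRY4 and EREG had 4 each, SPRED1 had 5, and ZFP36, DUSP1, SPRY1 and PHLDA1 had 3 each. The heptamer lay in 11 of the 17 members that passed downward and in 11 of the other 20 tested. The 3′ UTRs of the 17 were shorter (median 988 bases, against 1957 in the other 20), with 1.08 and 0.487 matches per kb. Whether any of these sites is used was not tested. Exon bases shared with an antisense or neighbouring gene were most extensive for IER2, IER3, DUSP6, NR4A1 (10.3%), KLF4 (9.75%), PHLDA1 (9.35%) and ERBB2 (6.93%).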

How the data were processed

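RNA was measured by sequencing in 12 libraries of PANC-1 and H1299 cells, 3 in each of 4 groups, with group membership read from each sample's title and characteristics. The deposited values are raw whole-number counts per gene: per the labels and methods, the authors ran FastQC and cutadapt, used STAR 2.7.2b for alignment of paired reads to GRCh38, and featureCounts 2.0.1 gave the gene counts. The annotation release and the strand setting are not given in the sources used here, and reads shared between paralogs or overlapping genes could not be reassigned. Totals were 16065723 to 19173421 counts, and intervals on single libraries are not given because the spread between replicates exceeded counting error.

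Knockdown and scramble libraries of 1 line were set against each other, 3 against 3, by edgeR 4.0.16 in R 4.3.3 (filterByExpr with the group, TMM, quasi-likelihood test, Benjamini-Hochberg adjustment over all genes tested). The filter kept 16345 genes for PANC-1 and 16465 for H1299. The interaction and the line contrast came from 1 fit of all 12 libraries with 18505 genes. A call needed a log2 fold change beyond 0.5 in either direction together with an adjusted p below 0.05. An exact permutation test of 3 against 3 cannot give a p under 0.1. Comparisons share scramble libraries. Levels per kb divided CPM, scaled over all 12 libraries, by the union of exons in GENCODE release 44, which matched all 41 members. The fit was checked on simulated data. Alternatives were DESeq2 1.42.0, limma-voom (limma 3.58.1), RLE and upper quartile scaling, no filter and a minimum of 10 counts in every library, removal of mitochondrially encoded and the 20 most abundant genes, the replicate number as a block, a single fit of all libraries or of the scramble libraries alone, leaving out each library, and a log2 threshold of 1. The text names every member, gives each library for members called after either knockdown and for ligands and receptors averaging at least 1 CPM in a line, and names up to 2 genes a direction from the pathway lists among called genes with at least 5 CPM. Members and lists were chosen with earlier results of these data known.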

Additional observations from a re-analysis of the deposited data

Results flagged for a closer look

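The effects of both knockdowns differed in direction for 3 members, each tested as an interaction over all 12 libraries with edgeR's quasi-likelihood test. NR4A2 fell after FOSL1 knockdown in PANC-1 (-1.01) and rose after HDAC2 knockdown in H1299 (0.30), a difference of -1.29 ± 0.18 (SE, adjusted p = 7.9e-07). SPRY4 had 114, 121 and 116 CPM in FOSL1 knockdown cells, against 153 CPM in each PANC-1 scramble library, and 211, 207 and 208 CPM in HDAC2 knockdown cells, against 188, 185 and 179 CPM in H1299 scramble cells. It fell in PANC-1 (-0.39) and rose in H1299 (0.18), a difference of -0.55 ± 0.08 (adjusted p = 2.1e-06). DUSP14 had 22.6, 26.3 and 23.6 CPM in FOSL1 knockdown cells, against 20, 19.3 and 17.8 CPM in PANC-1 scramble cells, and 11.8, 11.7 and 9.72 CPM in HDAC2 knockdown cells, against 16.4, 14.7 and 14.5 CPM in H1299 scramble cells. It rose in PANC-1 (0.35) and fell in H1299 (-0.46), a difference of 0.825 ± 0.15 (adjusted p = 5.4e-05). Line and knocked-down gene change together here and cannot be told apart.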

How the results depend on the processing

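In PANC-1, 2 members passed upward with an absolute log2 fold change over 0.5. This count was 1 under upper quartile scaling and with at least 10 counts in every library, 1 to 3 with single libraries left out, and 0 at a log2 threshold of 1. In H1299, the 6 rises became 3 to 10 with single libraries left out, and the calls upward and downward 1 to 2 each. At a log2 threshold of 1, the calls in H1299 were 0 upward and 0 downward, and the upward calls of the difference between effects were 0.

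Changes of sign occurred only among members that had not passed. In PANC-1 with single libraries left out, EGR2 ran between -0.189 and 0.251, DUSP7 between -0.0415 and 0.096 and SPRED1 between -0.0989 and 0.136. In H1299, DUSP6 ran between -0.0786 and 0.0522, DUSP7 between -0.157 and 0.00881, EGR1 between -0.0621 and 0.161, HBEGF between -0.0792 and 0.0573, IER2 between -0.00607 and 0.116, IER5 between -0.181 and 0.00688, and KLF6 between -0.0215 and 0.0476, with KLF6 at -0.00884 under upper quartile scaling. For the difference between effects, DUSP4 ran between -1.02 and 0.218 (0.265 with limma-voom), DUSP8 between -0.23 and 0.14 and ETV5 between -0.0922 and 0.0094. Between the lines, SPRED2 ran between -0.0272 and 0.0345, and was -0.0377 under upper quartile scaling, -0.00162 without the filter and -0.00144 in the scramble libraries alone. The cause was not tested.

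The replicate numbers are shared by the groups but did not pair the samples: correlations of same-numbered deviations were 0.05, 0.066 and -0.022 in PANC-1 and -0.014, -0.1 and 0.13 in H1299. With the replicate block, 8 members rose and 22 fell in PANC-1, with 2 calls upward and 16 downward, and 6 rose and 6 fell in H1299. Low counts limit TGFA and BTC in PANC-1, AREG and EREG in H1299, and EGR2, EGR3 and DUSP4 in general.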
